A study of Homo sapiens with 12 samples.

Results

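In LNCaP, a human prostate cancer line that responds to androgen, 16251 sites had a peak of both HA-tagged forms of FOXA1 and no peak in any map of the endogenous protein. They were chosen by the deposited peak calls, as the peaks of the wild-type (WT) HA library that shared at least 1 base with a peak of the K295A HA library and none with a peak of the 8 FOXA1 libraries or of the 2 untagged HA libraries. They made up 24.1% of the 67500 WT peaks shared with K295A outside the untagged lists (95% exact binomial interval 23.8 to 24.4) and 16.7% of all 97120 WT peaks. They are called tag-only sites here, a name for the peak calls that does not mean endogenous FOXA1 was absent. The other 51249 of the 67500 tagged sites, which overlapped a FOXA1 peak in at least 1 library, are called matched sites. Since the sites were selected on these calls, their levels are given as a description, with no test. With both HA lists limited to peaks at or above the median score of their list, 5647 sites qualified, 15.8% of the tagged sites, and without combination replicate 1, the FOXA1 library with fewest peaks, 16276 did.

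FOXA1 is a forkhead pioneer factor, a protein that can bind its DNA motif in closed chromatin and opens enhancers for the androgen and estrogen receptors in luminal cells of the prostate and breast. Chromatin immunoprecipitation with sequencing (ChIP-seq) recovers the DNA around the bound protein, and a peak caller then marks places with more sequenced fragments (tags) than their surroundings. The HA tag is a short epitope that lets an antibody recover the introduced protein and not the protein of the cell itself.

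The study asked how Polycomb and a BUB3/USP7 deubiquitinase complex affect the stability of FOXA1 protein. In cells infected 5 days earlier, HA was precipitated in 4 conditions of 1 library each. These were a hairpin against FOXA1 (shFoxA1) with the HA-tagged K295A form, in which a lysine is replaced by alanine, shFoxA1 with the HA-tagged WT form, shFoxA1 alone, and the pGIPZ control. Endogenous FOXA1 was precipitated with another antibody from cells without hairpin or tag by their labels, after 7 days in 1 µM EPZ-6438 (an EZH2 inhibitor) with 3 µM P5091 (a USP7 inhibitor), EPZ-6438 alone, P5091 alone, or DMSO, the solvent, with 2 libraries per group. The labels do not say whether the paired libraries are separate cultures, how much of each tagged protein was made, or whether each construct was carried by a pool of cells or a clone. RNA and protein were not measured here, so neither the knockdown of FOXA1 nor the identity of the cells could be checked from expression.

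The HA libraries held 11640056 to 13694090 tags and the FOXA1 libraries 12299238 to 22589685. The tagged libraries gave 81607 peaks with K295A and 97120 with WT, against 971 with shFoxA1 alone and 982 with pGIPZ. The peak caller's filter on local signal removed 64.0% of the candidate peaks with shFoxA1 alone and 67.0% with pGIPZ. It removed 5.63% with K295A and 6.97% with WT. Absence from an untagged list therefore does not mean that no untagged signal lay there. In 7 of the FOXA1 libraries 68504 to 84423 peaks were called, and in combination replicate 1 there were 30811. The FOXA1 lists were filtered against input chromatin, which removed 6.78% to 17.2% of the candidate peaks of a library, whereas the HA lists had no input filter. A site may therefore be absent from a FOXA1 list because too few tags lay there or because the input or local filter removed it, and these cannot be told apart from the lists. All regions are in hg19 coordinates, and the genes and sequences at them were not analysed here.

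Tag-only sites were weaker places of both tagged proteins than matched sites, and few reached the upper range. The normalized tag count, the tags in a peak scaled to a library of 10000000, had a median of 14.3 in the K295A library (quartiles 11.3 and 19.6) and 16.0 in the WT library (12.2 and 22.1). At matched sites the medians were 19.6 with K295A (13.6 and 30.1) and 20.6 with WT (14.5 and 32.1). The tag threshold in the file header was 8.29 with K295A and 7.63 with WT, scaled the same way. It is no floor on the deposited tag counts, whose lowest values at tag-only sites were 6.78 with K295A and 6.11 with WT. A WT tag count of at least 45 was reached by 319 tag-only sites, or 1.96% of them (1.76 to 2.19), and by 12.6% of the matched sites (12.3 to 12.9).

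The share of tagged sites without a FOXA1 peak fell with strength, and most of the fall lay in the upper range. The 67500 sites were put into 10 strength classes of 5265 to 7626 sites by WT tag count, from 1 (weakest) to 10. Tag-only sites were 31.0% of class 1 (29.8 to 32.2), 32.1% of class 2 and 29.5% of class 5, whose WT tag counts were 16.8 to 18.3. From there the share dropped in every step, to 19.5% in class 8, 14.0% in class 9 and 4.71% in class 10 (4.22 to 5.24). Ordered by K295A tag count the fall was steeper, with 36.6% tag-only in class 1 (35.4 to 37.9) and 3.29% in class 10 (2.88 to 3.74).

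**Figure D1:**
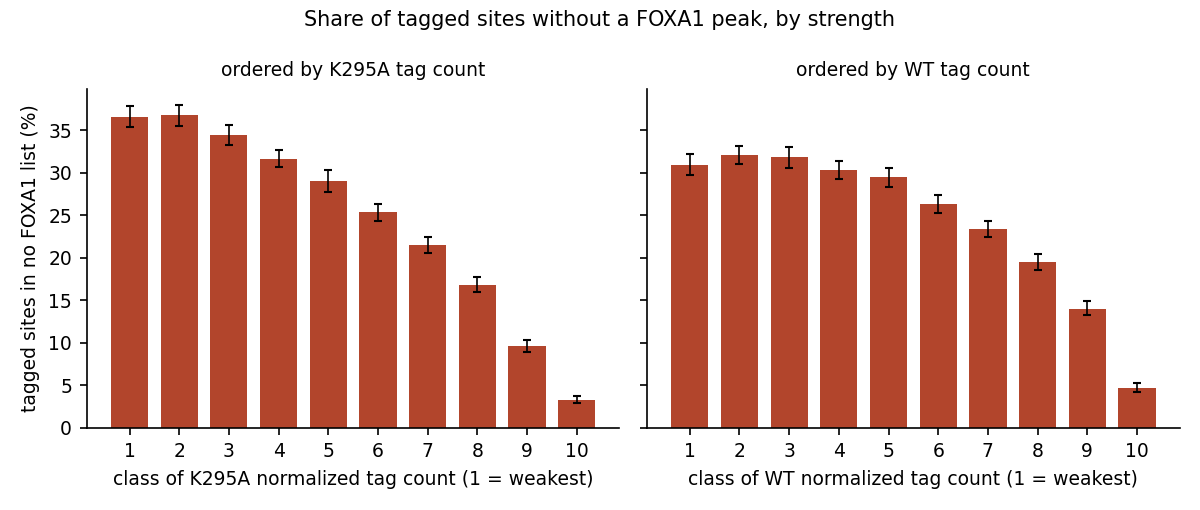
Percent of tagged sites in no FOXA1 list (vertical axis) by strength class of K295A tag count (left) and of WT tag count (right), with 95% exact binomial intervals that cover counting error. The share is above 29% in classes 1 to 5 on either scale and falls to 3.29% and 4.71% in class 10.

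Among sites of like WT strength, FOXA1 tag counts can be given only where a DMSO library called a peak. Of the 5148 matched sites with WT tag counts of 14.5 to 16.0, 3610 were called in DMSO replicate 1, with a median FOXA1 tag count of 22.7 (lower quartile 16.1). In DMSO replicate 2, 4099 were called, with a median of 18.6 (lower quartile 12.8). The other matched sites and the 2239 tag-only sites of that range have no DMSO value, since the lists hold none outside peaks.

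Sites found in few FOXA1 libraries had WT tag counts close to those of the tag-only sites and slightly higher K295A tag counts. The median K295A tag count was 14.3 at tag-only sites, 15.1 at sites called in 1 to 4 FOXA1 libraries and 15.8 at those called in 5 or 6. The median WT tag count was 16.0 at tag-only sites, 16.8 at the 3502 sites called in 1 FOXA1 library, and 16.0 to 16.8 at sites called in 2 to 6. It was 19.1 at sites called in 7 libraries and 28.2 at the 20862 called in all 8. Of the 3502 sites called in a single FOXA1 library, each replicate 2 library held 561 (combination) to 738 (P5091). The replicate 1 libraries of P5091, DMSO and EPZ-6438 held 226, 273 and 337, and combination replicate 1, the library with fewest peaks, held 25. The replicate 2 lists were also longer, with 81511 to 84423 peaks, against 68504 to 77780 in replicate 1 outside the combination.

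Some tagged sites missing from the DMSO maps had a FOXA1 peak in treated cells. Of 21975 tagged sites without a peak in either DMSO library, 5724 had a peak in at least 1 library of EPZ-6438, P5091 or the combination, which left the 16251. The treated groups together had more libraries than DMSO, and so more occasions to call a site. Whether these sites depend on treatment was not tested. Few of the 5724 were limited to a single treatment and present in both of its libraries: 8 for the combination, 138 for EPZ-6438 and 103 for P5091. Beside these, 142 tagged sites were called in both DMSO libraries and nowhere else. The count for the combination is limited by its replicate 1, the FOXA1 library with fewest peaks (30811).

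The K295A signal was lower relative to WT at tag-only sites than at matched sites. The median log2 ratio of K295A over WT was -0.16 at tag-only sites (quartiles -0.47 and 0.16) and -0.07 at matched sites (-0.35 and 0.22). By the number of FOXA1 libraries that called the site, the median was -0.16 for none, -0.13 for 1, -0.10 for 2, -0.12 for 3, -0.08 for 4 to 6, -0.06 for 7 and -0.03 for all 8. At least 2-fold less signal with K295A was seen at 582 tag-only sites, or 3.58% (3.30 to 3.88), and at 970 matched sites, or 1.89% (1.78 to 2.01), where 2.30% of all tagged sites passed that fold. At least 2-fold more signal with K295A was seen at 130 tag-only sites, or 0.80%, and at 497 matched sites, or 0.97%, with 0.929% of all tagged sites. The gap in the share with at least 2-fold less signal depended on which tag count set the strength classes. Within classes of K295A tag count, the share was 3.27% at tag-only and 3.24% at matched sites in class 3. It was 2.17% and 1.39% in class 5, and 0% and 0.033% in class 9. Within classes of WT tag count it was 10.5% and 4.15% in class 8. No site passed in classes 1 to 3, where the definition left almost no room for it. WT tag counts there were at most 13.7, and each site needed a K295A peak, whose lowest tag count was 6.78. Each protein has 1 library, so these differences have no replicate check.

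How large this difference was depended on how sites of like strength were paired. Within classes of WT tag count, the median log2 ratio of tag-only sites lay below that of matched sites in all 10 classes, with a difference of -0.06 in class 1 and of -0.28 to -0.22 in classes 6 to 10. In class 10 it was -0.40 at tag-only sites and -0.16 at matched sites, and in class 1 it was 0.34 and 0.40. Every site also needed a K295A peak, which cuts off low ratios at weak WT sites. The WT classes therefore do not show whether the gap widens with strength. Within classes of the mean of both log2 tag counts, which favours neither library, the difference was -0.17 to -0.09 in all 10. Within classes of K295A tag count the difference was between -0.08 and 0.00, and in classes 1 to 6 the tag-only sites did not lie below the sites called in all 8 FOXA1 libraries. Across sites, the log2 tag counts of K295A and WT were less alike at tag-only sites (Pearson r = 0.685 over 16251 sites) than at matched sites (r = 0.857 over 51249), where the range of tag counts was also wider; sites within a library are not independent replicates.

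**Figure D2:**
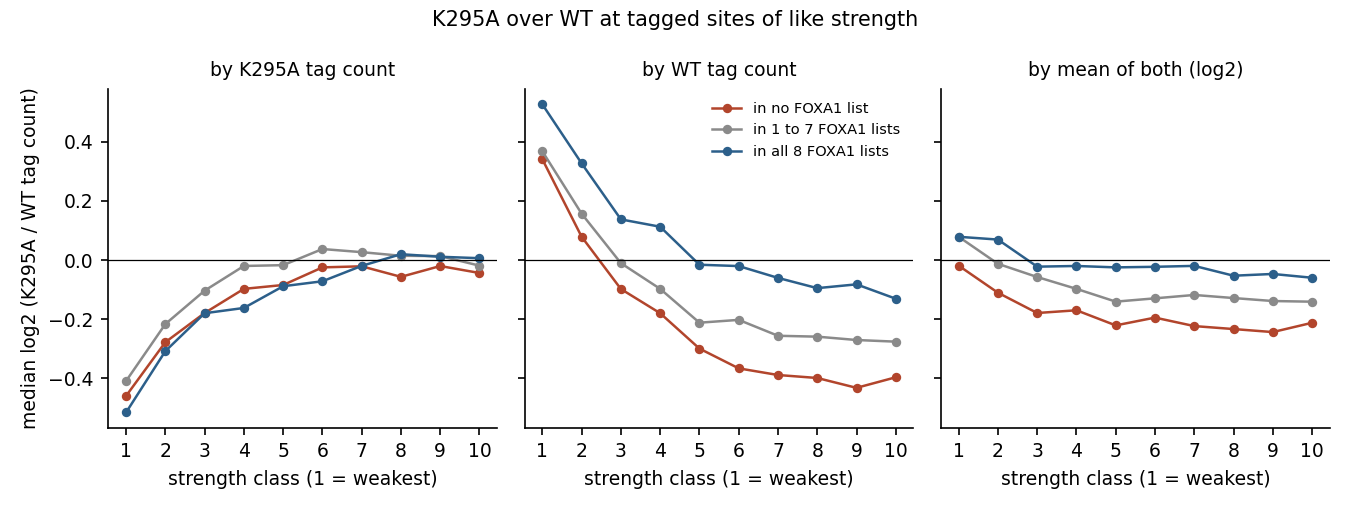
Median log2 ratio of K295A over WT tag count (vertical axis) at sites in no FOXA1 list, in 1 to 7 and in all 8, by strength class (1 to 10) of K295A tag count, WT tag count or the mean of both log2 values. The tag-only sites lie lowest in the middle and right panels, with -0.40 and -0.21 in class 10, and in the left panel the 3 curves cross.

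At the sites with the widest departures between the proteins, the lower of the 2 libraries held 10 to 16 tags. Among the 6064 tag-only sites with a tag count of at least 20 in the higher library, chr11:122754731-122755035 had 25.6 with K295A and 8.40 with WT, a ratio of 3.05 (95% counting interval 1.51 to 6.67). At chr12:9357122-9357426 the tag counts were 36.2 with K295A and 12.2 with WT (ratio 2.97, 1.65 to 5.59), and at chr17:49871951-49872255 they were 22.6 and 7.63 (2.96, 1.41 to 6.79). These are the highest ratios, at WT tag counts at or below the lower quartile of tag-only sites. At the other end, chr6:17950393-17950697 had 10.5 with K295A and 38.2 with WT (ratio 0.275, 0.141 to 0.508). Likewise chr18:47363452-47363756 had 11.3 with K295A and 40.5 with WT (0.279, 0.146 to 0.503), and chr15:83864867-83865171 had 9.79 with K295A and 34.3 with WT (0.285, 0.141 to 0.538). The WT tag counts of these 3 were well above the tag-only median of 16.0. The intervals cover counting error only and belong to sites picked for their extreme ratios.

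Peaks at tag-only sites stood out less from their surroundings, in step with their lower tag counts. The enrichment over the 10 kb around the peak, the peak caller's own fold, had a median of 12.4 with K295A (quartiles 8.65 and 17.7) and 13.3 with WT (8.97 and 19.1) at tag-only sites. At matched sites it was 15.9 with K295A (10.6 and 24.0) and 16.3 with WT (10.6 and 24.9). A WT fold under 8, where a call needed 4, was found at 18.9% of tag-only sites (18.3 to 19.5) and 12.7% of matched sites (12.5 to 13.0). A WT fold of at least 20 was found at 22.7% of tag-only sites (22.1 to 23.4) and at 37.1% of matched sites (36.6 to 37.5).

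Within classes of WT tag count most of that difference went away, except among the strongest sites. In classes 1 to 8 the median local fold of tag-only sites differed from that of matched sites by -0.82 to -0.20. In class 10 it was 24.3 at tag-only sites and 32.9 at matched sites. The focus ratio, the share of tags on the expected sides of the peak centre, had a median of 0.833 at tag-only sites and 0.860 at matched sites in the WT library, and 0.851 against 0.892 in class 10. The ratio of tags to distinct positions expected, which rises when copies of few fragments fill a peak, had WT medians of 0.97 at tag-only sites and 0.95 at matched sites.

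The highest local enrichments lay far from DMSO peaks, and 2 of the 3 had WT tag counts below the tag-only median. At chrX:126914847-126915151 the fold over the local window was 29.2 with K295A and 95.7 with WT, at tag counts of 13.6 with K295A and 11.4 with WT. At chr22:28082999-28083303 the fold was 17.7 with K295A and 91.1 with WT, and the tag count 13.6 with K295A and 30.5 with WT. At chrX:56497402-56497706 the fold was 61.3 with K295A and 86.6 with WT, at tag counts of 12.8 and 14.5. The nearest DMSO peak lay 32106 to 77467 bases away from these sites.

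The strongest tag-only site lay within 10 kb of a peak of an untagged library, and several of the next lay near FOXA1 peaks. Ranked by WT tag count, leaving out the 49 tag-only sites on unplaced or random contigs, the first was chr10:42385065-42385369, with 1186.4 tags with K295A and 983.8 with WT (ratio 1.21, 1.12 to 1.30). Its local fold was 4.02 with K295A and 4.01 with WT, just past the limit of 4, and a peak of an untagged library lay 4668 bases away. The next was chr12:124138924-124139228, with tag counts of 136.3 with K295A and 164.9 with WT, a local fold of 25.1 with K295A and 24.3 with WT, and no DMSO peak within 10 kb.

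At chr22:16153533-16153837 the tag counts were 96.4 with K295A and 109.9 with WT, with a FOXA1 peak 629 bases away. At chrY:59018065-59018369 they were 107.0 with K295A and 105.3 with WT, and at chr1:144988539-144988843 they were 91.1 with K295A and 96.2 with WT. The nearest DMSO peak lay 1293 and 1037 bases from these sites, and the nearest untagged peak 15943 and 16044. Whether the nearby untagged peaks bear on these sites was not tested. Over the whole list, 0.64% of tag-only sites (0.52 to 0.77) and 0.64% of matched sites (0.58 to 0.72) lay within 10 kb of an untagged peak, and 0.30% of tag-only and 0.26% of matched sites lay on unplaced or random contigs.

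Tag-only sites lay somewhat farther from the peaks of endogenous FOXA1 than matched sites did. The nearest DMSO peak was a median of 10070 bases away (quartiles 3937 and 22122), and the nearest peak of any FOXA1 library 6691. A DMSO peak lay within 1 kb of 7.45% of the tag-only sites (7.05 to 7.87), within 10 kb of 49.7% (48.9 to 50.5) and within 100 kb of 98.1%. Measured the same way, to the nearest DMSO peak sharing no base, the median was 8016 bases for matched sites, with 57.3% (56.9 to 57.7) within 10 kb. Within 1 kb it was 9.70% of matched sites (9.45 to 9.96). That share was 11.3% for sites called in 1 to 7 FOXA1 libraries and 7.33% for those called in all 8 (6.98 to 7.69), close to the tag-only share. Beyond 100 kb lay 313 tag-only sites, 1.93% of them, and 523 matched sites, 1.02%, and another 3 tag-only and 7 matched sites lay on contigs without any DMSO peak. The same shares for positions of the genome in general were not computed.

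The share of tagged sites that were tag-only climbed with distance from the next DMSO peak. It was 19.6% up to 1 kb (18.6 to 20.6), 22.2% at 3 to 10 kb, 25.3% at 10 to 30 kb, 31.0% at 30 to 100 kb and 37.4% beyond (34.1 to 40.7), where the 10 sites on contigs without a DMSO peak are counted with the farthest. Sites far from DMSO peaks were also weaker, with a median WT tag count of 20.6 for all tagged sites up to 1 kb and 16.0 beyond 100 kb. The trend was therefore also looked at within broad ranges of strength. In classes 8 to 10 by WT tag count, 18.0% were tag-only beyond 30 kb (16.4 to 19.7), against 11.7% within 10 kb (11.1 to 12.3). Strength was not held fixed in this range, where 19.5% of class 8 but 4.71% of class 10 were tag-only. In classes 1 to 3 the shares were 37.3% beyond 30 kb (35.5 to 39.0) and 29.2% within 10 kb (28.3 to 30.1). Peaks of a list are kept apart by the peak caller, by 578 bases or more between centres in the DMSO lists, which limits how many neighbours a matched site can have within 1 kb.

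**Figure D3:**
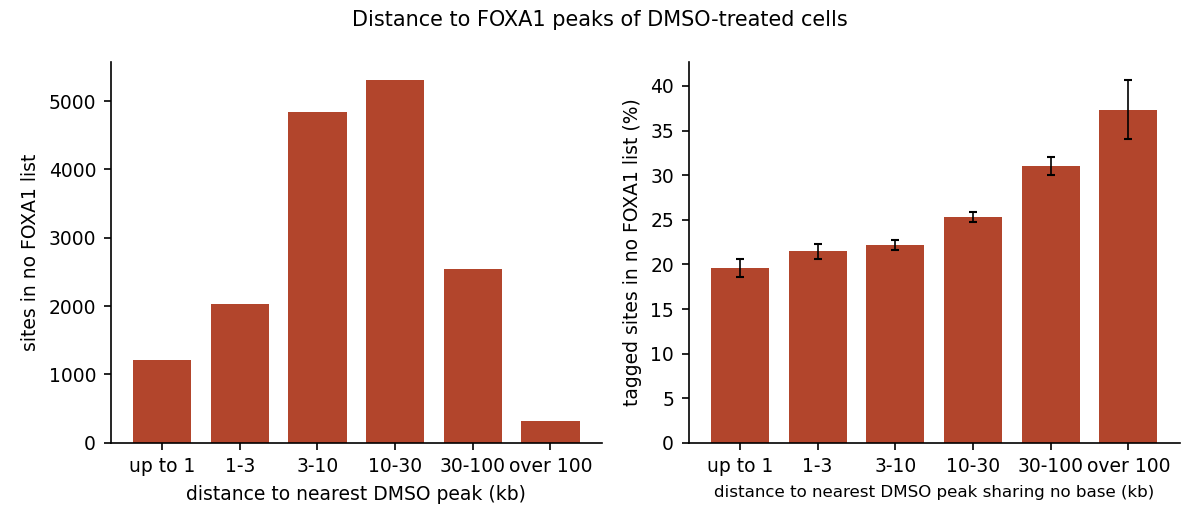
Number of tag-only sites (left) and percent of tagged sites that were tag-only (right, with 95% exact binomial intervals) by distance to the nearest DMSO peak sharing no base, in kb. Most tag-only sites lie 3 to 30 kb from a DMSO peak, and their share climbs to 37.4% beyond 100 kb, a class that includes 10 sites on contigs without a DMSO peak.

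The tag counts of tag-only sites were lower far from DMSO peaks, while the ratio of the proteins changed little. The median tag count was 15.8 with K295A and 18.3 with WT up to 1 kb from a DMSO peak, and 13.6 with K295A and 15.3 with WT beyond 100 kb, while the median log2 ratio stayed between -0.17 and -0.13 in every distance class. The 3 sites farthest from a DMSO peak lay together on chromosome X. At chrX:33083190-33083494, 827413 bases from one, the tag counts were 11.3 with K295A and 9.92 with WT. At chrX:33113352-33113656, 797251 bases away, they were 10.5 with K295A and 10.7 with WT, and at chrX:33198272-33198576, 712331 bases away, 9.04 with K295A and 13.7 with WT. FOXA1 peaks of treated libraries were nearer, at 31087 to 61249 bases.

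Few sites sat at the limit of the definition. No base lay between the site and a FOXA1 peak at 3 tag-only sites, and 185 were within 100 bases. On the other side, 33 matched sites shared at most 10 bases with their FOXA1 peak. Just inside was chr15:56491582-56491886, with tag counts of 18.8 with K295A and 30.5 with WT, directly beside a DMSO peak. Just outside was chr5:121447150-121447454, with 21.1 with K295A and 28.2 with WT, which shared 1 base with a FOXA1 peak.

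Most tag-only sites had no other tag-only site within 12.5 kb. Another tag-only site lay within 12.5 kb of 21.7% of them (21.1 to 22.3), and such neighbours formed 1641 groups, of which 1435 had 2 sites, 176 had 3, 24 had 4 and 6 had 5 or more. The share was 12.6% for peaks at or above the median score of their list and 11.4% for peaks at least 8-fold over the local window, definitions that leave fewer sites to be neighbours. Counting any tagged site as a neighbour, 53.6% of tag-only sites (52.9 to 54.4) had one within 12.5 kb, against 52.3% of sites called in 1 to 7 FOXA1 libraries and 52.4% of those called in all 8. Within 5 kb the shares were 28.1% for tag-only sites (27.4 to 28.8), 25.8% for those in 1 to 7 libraries and 23.9% for those in all 8 (23.3 to 24.5). The shares thus differed more at 5 kb than at 12.5 kb.

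The largest group held 7 sites over 23750 bases at chr2:215941678-215965427. From left to right their tag counts were 9.04, 21.1, 24.9, 18.1, 21.1, 19.6 and 12.8 with K295A, and 13.7, 22.1, 19.8, 35.9, 36.6, 36.6 and 19.1 with WT. Signal was lower with K295A at 6 of the 7, with log2 ratios of -0.99 to -0.07, and higher at the third, with 0.33. No other tagged site lay in this stretch or within 20 kb of it. The 2 DMSO libraries gave a single peak there, in replicate 2, with a tag count of 5.81, at chr2:215962225-215962513, between the fifth and sixth sites.

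**Figure D4:**
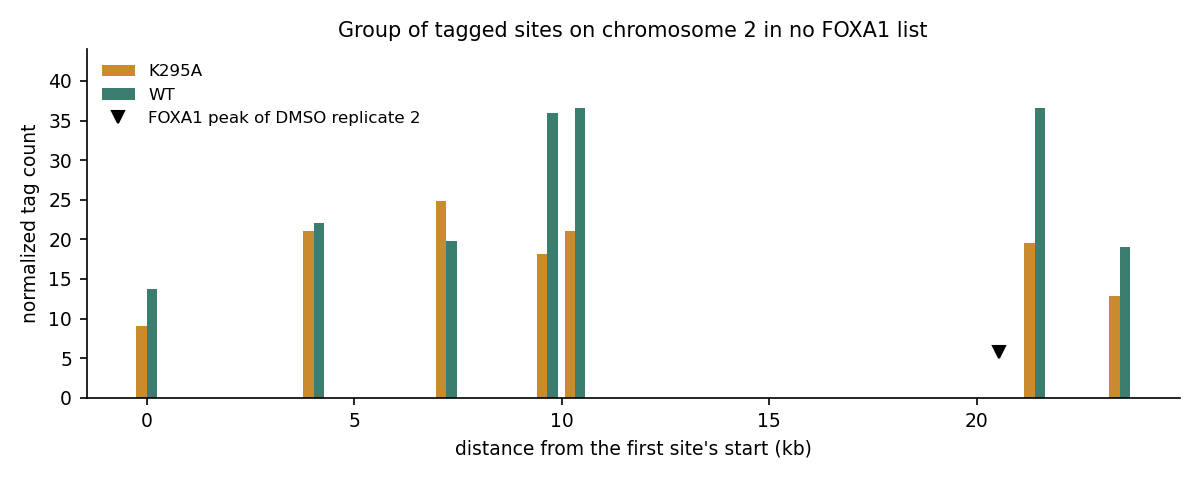
Normalized tag count (vertical axis) with K295A (left bar) and WT (right bar) at the 7 tag-only sites of the chromosome 2 group, by distance in kb from the start of the first. The triangle marks the DMSO replicate 2 peak of 5.81, and no peak of DMSO replicate 1 lies in the stretch.

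Of the groups of 5, the pair with the highest median WT tag count was named. At chr15:77380338-77405107 tag counts ran between 9.04 and 27.1 with K295A and between 13.7 and 41.2 with WT, with 1 peak of each DMSO library and 1 matched site inside the stretch. At chr5:82922647-82947067 they ran between 9.79 and 20.3 with K295A and between 16.8 and 27.5 with WT, with 1 matched site inside the stretch and the nearest DMSO peak 36722 to 60838 bases from the 5 sites. K295A was below WT at every site of these 2 groups, which were picked for high WT tag counts. The other groups of 5 each held at least 1 site with K295A above WT, with highest log2 ratios of 0.29, 0.60 and 0.34.

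Tag-only sites were spread over all chromosomes, but their share of the tagged sites was uneven. It was highest on chromosome 4, at 28.0% of 4395 tagged sites (26.7 to 29.3), followed by chromosome 18 at 27.2% (25.1 to 29.3) and chromosome 5 at 27.2% (25.9 to 28.5). It was lowest on chromosome 19, at 16.2% of 907 (13.9 to 18.8), followed by chromosome 22 at 17.4% (14.5 to 20.7) and chromosome 17 at 18.9% (17.2 to 20.7). Chromosomes 17, 19 and 22 are known as gene-rich, and chromosomes 4, 5 and 18 as comparatively gene-poor. Chromosomes 13 and Y, also known as gene-poor, were at 25.3% (23.3 to 27.5) and 22.3% (17.5 to 27.7), beside 24.1% of all tagged sites. Gene density was not computed here, and whether it bears on the share was not tested.

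The mix of strong and weak sites differed little between chromosomes 4, 5, 17, 18, 19 and 22. Given the WT tag counts alone, the share would have been 24.3% on chromosome 4, 24.0% on chromosome 18 and 24.3% on chromosome 5, and 24.2% on chromosome 19, 24.5% on chromosome 22 and 23.9% on chromosome 17. On chromosome X the measured share was 22.6% (20.3 to 24.9), where its weaker tagged sites, with a median WT tag count of 16.0, would have given 27.0%. Copy number of LNCaP chromosomes was not analysed here.

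**Figure D5:**
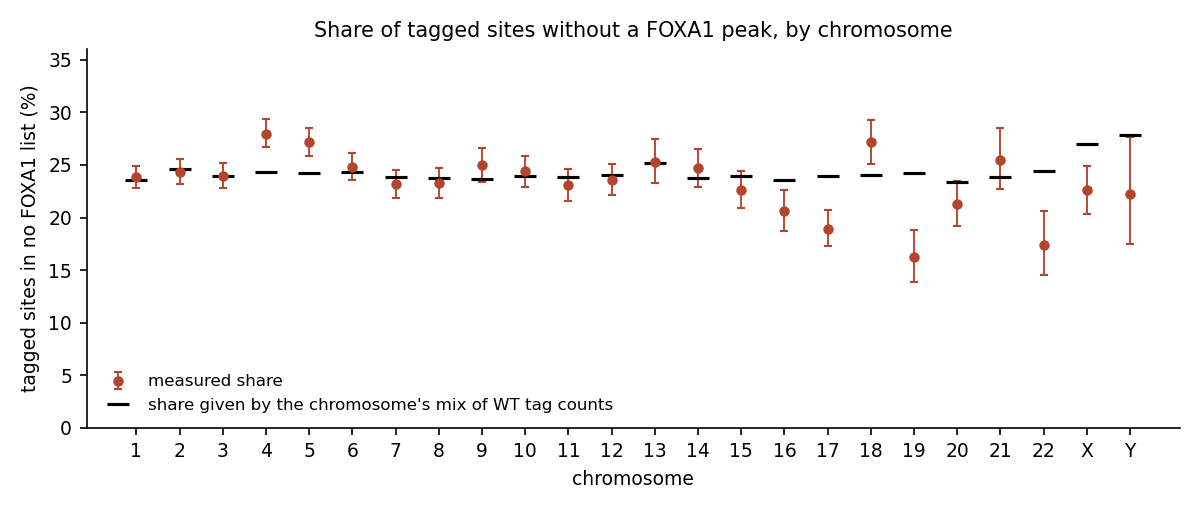
Percent of tagged sites that were tag-only on each chromosome (points, with 95% exact binomial intervals) and the percent given by that chromosome's mix of WT tag counts (short lines). The intervals of chromosomes 16, 17, 19, 22, X and Y lie below that mark and those of chromosomes 4, 5 and 18 above it.

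On a finer scale, 1834 windows of 1 Mb held at least 20 tagged sites, and the share of tag-only sites had quartiles of 16.0% and 29.6% over them, with a median of 23.1%. The windows held a median of 28 tagged sites, so counting error alone spreads these shares. Whether the spread exceeds counting error was not tested. At least 50% of the tagged sites were tag-only in 29 windows. The highest shares, chosen after their values were seen, were 13 of 20 sites at chr2:141000001-142000000 and 14 of 22 at chr5:169000001-170000000. With more sites, chr18:52000001-53000000 had 21 of 35, or 60.0% (42.1 to 76.1). None of the tagged sites was tag-only in 8 windows, the largest being chr15:45000001-46000000 with 37 tagged sites, which allows a share of up to 9.49% by the exact interval, and chr9:112000001-113000000 with 31.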

How the data were processed

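The submitters' processing notes name Bowtie2, HOMER 4.2 and hg19. Each library had its own findPeaks run in factor style, per the file headers, with a false discovery rate of 0.001, at least 4-fold over 10 kb around the peak, and an input library for FOXA1 only. The deposited normalized tag count is a signal value, scaled by the authors to 10000000 tags. The fold over the 10 kb window and the clonal fold, as deposited, are the peak caller's ratios, the focus ratio is its fraction per peak, and the deposited findPeaks score served for a stricter threshold.

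From these lists, overlaps of at least 1 base, distances between peak edges, groups chained at 12.5 kb and 10 classes of tag count were computed in Python 3.11.15 (pandas 2.3.3, scipy 1.17.1). A site's K295A value is that of its highest overlapping K295A peak. Tags behind a ratio's counting interval were recovered from the tag counts and library totals, whole for 100% of peaks within 0.0655 and 0.0664 tags. Exact binomial (Clopper-Pearson) intervals cover counting error only, and neighbouring sites are not independent. With 1 HA library per condition no test was run. Overlap steps were tested on simulated lists. The sites and the comparisons were chosen with earlier results of these data known. Named sites are those with the highest WT tag count, local fold, distance or extreme ratio, the largest groups and those at the overlap limit.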

Additional observations from a re-analysis of the deposited data

How the results depend on the processing

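Tag-only sites had lower median K295A and WT tag counts, local fold and log2 ratio of K295A over WT than matched sites in all 15 definitions tried. These include the main one and 8 that each leave out 1 FOXA1 library, so they share most sites. None paired sites of like strength, and within classes of K295A tag count the log2 difference was smaller, as given above. With both HA lists limited to findPeaks scores at or above the median of their list there were 5647 sites, 15.8% of tagged sites, with a median WT tag count of 24.4, a local fold of 16.9, a distance of 9110 bases to a DMSO peak and 12.6% in groups. With at least 8-fold over the local window the share was 21.8%, the WT tag count 17.6, the local fold 16.0, the distance 12593.5 bases and the share in groups 11.4%. With no FOXA1 or untagged peak within 1000 bases the share was 21.4%, the local fold 13.8, the distance 11377 bases and the share in groups 19.9%. That definition drops the sites nearest to FOXA1 peaks, so its lower share and longer distance follow from it. Absence from the 2 DMSO libraries only, which can only add sites, gave 32.6%, a distance of 9673 bases, a log2 ratio of -0.14 and 25.6% in groups. With WT and K295A centres within 100 bases the share was 23.0%, the local fold 13.5 and the share in groups 19.4%. A group distance of 5000 bases gave 10.9% in groups and 25000 bases gave 34.8%. Leaving out each FOXA1 library in turn gave 16276 to 16989 sites, shares of 24.1% to 25.2%, distances of 9451 to 10071.5 bases, WT tag counts of 16.0 to 16.8, local folds of 13.2 to 13.3, log2 ratios of -0.162 to -0.157 and 21.7% to 22.4% in groups.

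No paired analysis was possible because the results come from no test and the HA conditions have 1 library each. The header tag thresholds of the FOXA1 lists were 6.20 to 8.13 on the scale of the tag counts. Peak numbers did not follow depth, with 30811 peaks from 15999804 tags in combination replicate 1 and 83194 from 12672030 in replicate 2. A site with fewer FOXA1 tags than a call needs cannot be told apart from an unbound one.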
